A study of Mus musculus with 2 samples.

Results

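DNA damage signalling and repair genes were examined as a set of 33 named genes in wild-type and mDom-/- mouse embryos, out of 18069 genes with a probe of their own on the array. The genes were taken by symbol or older synonym and put in 4 groups by role: checkpoint and break sensing (10 genes), homologous recombination and crosslink repair (11), end joining (5), and mismatch, excision and single-strand break repair (7). Total RNA came from whole embryo proper at E8.5 (embryonic day 8.5). It was prepared from 42 pooled wild-type embryos and 45 pooled embryos homozygous for the mDom mutation, and the pools were matched by litter. mDom, also called mDomino or p400, is now named Ep400 and encodes an ATPase that remodels chromatin within the TIP60 complex. The sources used here give neither the mouse strain nor the kind of allele, nor whether the protein was absent. Each pool was hybridised to 1 array of the CodeLink system, which carries 1 oligonucleotide probe per spot, so no value has a replicate error, no test was possible, and all differences describe these 2 pools. Pooling averages over embryos and hides the spread between litters.

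DNA breaks are first sensed by protein complexes that activate the kinases ATM and ATR, which halt the cell cycle through the checkpoint kinases CHK1 and CHK2. Breaks are then mended by homologous recombination, which copies the sister chromatid, or by end joining, which ligates the ends directly, while damaged or mispaired bases are removed by excision and mismatch repair. Embryos at gastrulation and early organ formation divide fast, and many of these genes are known to be needed for their survival. The TIP60/p400 complex itself is known to act on chromatin around breaks through histone acetylation and H2A variant exchange.

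Intensities are given as multiples of the array median. A gene was compared when its probe lay above a floor of 0.541 on at least 1 array, and log2 ratios are mDom-/- minus wild-type. Of the 33 genes, 28 were compared, and all of these were above the floor on both arrays. Xrcc2 and Xrcc3, which act in homologous recombination, had no probe of their own. Probes of 3 genes lay below the floor on both arrays. The brighter Atr probe read 0.311 in wild-type and 0.0655 in mDom-/-. Rad52, a recombination mediator gene, read 0.485 and 0.234. Xrcc5, which encodes the Ku80 end-binding protein, read 0.174 and 0.250. These 3 enter no ratio here, since values below the floor have no order. The internal yardstick was the SD of a log2 ratio taken from pairs of probes of the same gene, 0.25 over 1302 genes. It covers error that differs between probes. Error that both probes of a gene share on an array and the spread between pools of embryos are not covered. Among all genes measured on both arrays, ratios spread more widely where signals were dim. Their scaled median absolute deviation was 0.35 in the dimmest of 4 equal brightness bins and 0.19 in the brightest, so the single yardstick does not suit all genes alike.

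The compared genes read slightly lower in the mDom-/- pool for the most part, and by little. The log2 ratio was below 0 for 25 of 28, where 50.5% of all 13137 compared genes were below 0. Their median was -0.16, against -0.0036 over all compared genes. No gene was 2-fold apart in either direction (background 0.845% higher and 0.929% lower). At least 1.5-fold lower were 3, or 10.7% (background 4.35%), and none was higher by as much (background 4.09%). These 3 were Brca2, Prkdc and Parp1, one each from recombination, end joining and single-strand break repair. Without them the median of the other 25 was -0.15, with 22 below 0. Most single differences were smaller than the yardstick: 7 of 28 genes were lower by at least 1 probe-pair SD (background 19.1%) and 1 was higher by as much (background 17.2%). In bulk RNA, fewer cells of a type and less RNA per cell cannot be told apart.

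**Figure D1:**
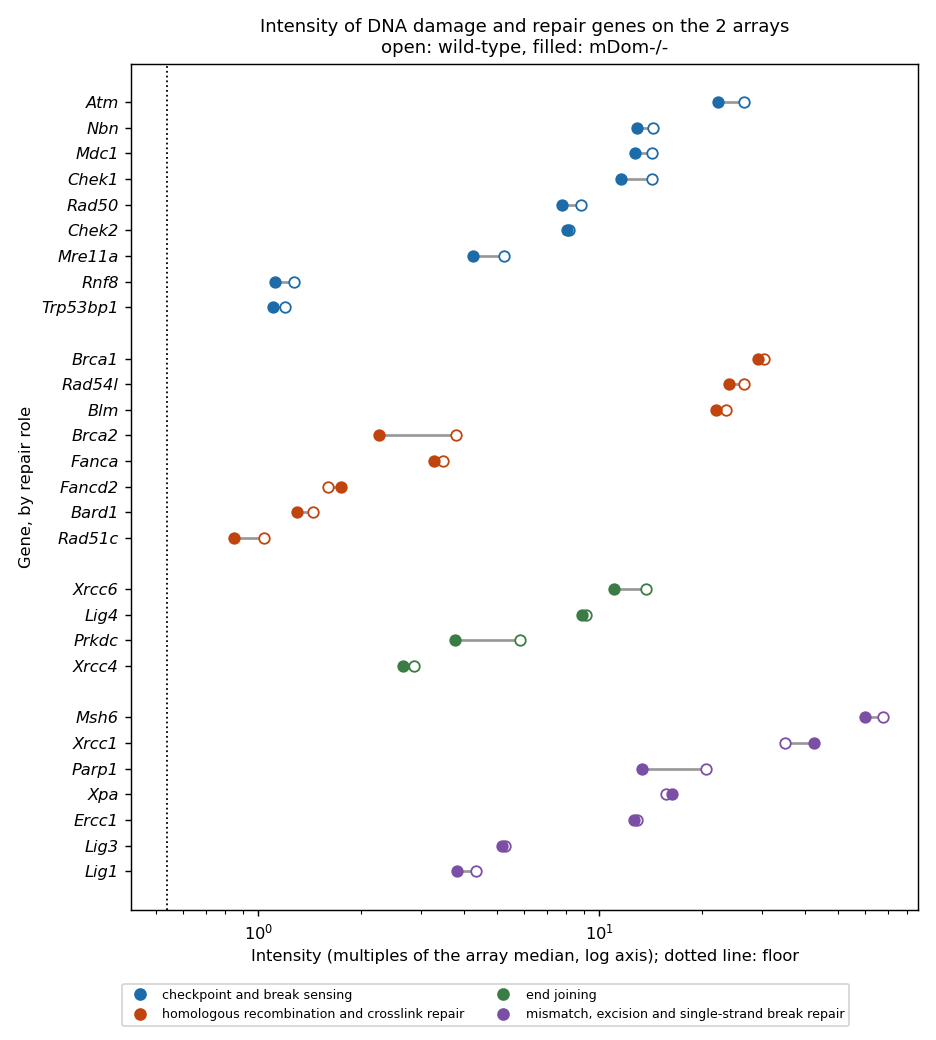
Intensity of each of the 28 compared genes on the wild-type array (open points) and the mDom-/- array (filled points), on a log axis in multiples of the array median, with genes grouped by repair role and colour; the dotted line is the floor of 0.541. The filled point lies left of the open one for 25 genes and right of it for Fancd2, Xpa and Xrcc1, and the widest gaps are those of Brca2, Prkdc and Parp1.

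The promoters of the genes at issue were read from RefSeq (GRCm38.p6), where 28 of the 33 genes had a window of 250 bases before to 50 after a start site. Rad50, Nbn, Xrcc2, Fancd2 and Prkdc had none. The windows were searched on both strands for TTTCGCGC and TTTGGCGC (forms of the site of E2F factors, which drive S phase genes), for CCAAT (the box bound by NF-Y) and for TTTGAA (the CHR element of cell cycle genes). One of these E2F forms was found in 2 of 33 windows, those of Rad51c and Lig1, against 0.813% of all 32851 windows. Other forms of the E2F site were not searched. CCAAT was in 16 of 33 windows, against 37.4% of all, and TTTGAA in 2, against 17.9%. A match is a string of letters and not a shown site.

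The upstream sequences of Brca2 and Parp1 are shown because these had the lowest ratios among the genes with a window, and that of Brca1 because its ratio was near 0 although it works with Brca2. Capitals mark a match to one of the strings, and all run 5′ to 3′ on the strand of the gene up to the base before its start. Brca2 lies at chr5:150522371-150522620 on the plus strand, Parp1 at chr1:180568641-180568890 on the plus strand and Brca1 at chr11:101551956-101552106 on the minus strand. The Brca1 sequence is cut at the start of the opposite gene, Nbr1.
Brca2: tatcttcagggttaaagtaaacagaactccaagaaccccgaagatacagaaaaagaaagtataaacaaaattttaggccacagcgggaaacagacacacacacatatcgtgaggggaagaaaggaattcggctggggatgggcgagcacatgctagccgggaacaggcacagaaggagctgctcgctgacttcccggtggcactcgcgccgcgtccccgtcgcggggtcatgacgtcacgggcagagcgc
Parp1: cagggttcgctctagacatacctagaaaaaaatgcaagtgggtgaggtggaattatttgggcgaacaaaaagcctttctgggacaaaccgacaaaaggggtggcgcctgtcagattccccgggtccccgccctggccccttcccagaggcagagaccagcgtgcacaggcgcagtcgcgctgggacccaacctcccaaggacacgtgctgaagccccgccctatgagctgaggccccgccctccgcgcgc
Brca1: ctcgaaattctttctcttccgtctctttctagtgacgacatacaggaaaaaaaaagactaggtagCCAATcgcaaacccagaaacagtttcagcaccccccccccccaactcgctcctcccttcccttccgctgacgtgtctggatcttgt
The Brca1 stretch holds CCAAT from 86 bases before its start, while those of Brca2 and Parp1 hold none of the searched strings. The Brca2 stretch does hold gcgggaaa. This is GCGCGAAA, the opposite strand of TTTCGCGC, with a g in place of a c, and it was not among the strings searched. The lack of a match thus does not show that Brca2 and Parp1 lack an E2F site of another form.

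The E2F matches of Rad51c and Lig1 are shown with 11 bases on either side, as the only ones of the 28 genes that hold a searched form. They lie just after a start site, at chr11:87404477-87404506 on the minus strand for Rad51c and at chr7:13278841-13278870 on the plus strand for Lig1, whose match reads on the opposite strand.
Rad51c: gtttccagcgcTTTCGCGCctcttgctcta
Lig1: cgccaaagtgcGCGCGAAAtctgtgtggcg
Both genes were lower in mDom-/-, with log2 ratios of -0.29 and -0.19, inside the range of the genes without such a match.

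Among the genes of checkpoint and break sensing, all 9 compared genes were lower in the mDom-/- pool, with a median log2 ratio of -0.18 and none past 1.5-fold. Atm, the kinase that answers double-strand breaks, read 26.5 in wild-type and 22.3 in mDom-/-, a log2 ratio of -0.25. Its second probe, at 4.49 and 3.96, gave -0.18. Both probes of Atm were thus lower, by no more than 1 probe-pair SD. Chek1, the kinase downstream of ATR that restrains entry into mitosis, read 14.3 and 11.6, and its log2 ratio of -0.30 was the lowest of the group. Chek2, the kinase downstream of ATM, read 8.15 and 8.06, with a log2 ratio of -0.017. The checkpoint kinases thus lay at either end of the group.

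The genes of the complex that binds broken ends and recruits ATM were all lower. Mre11a, its nuclease, read 5.24 and 4.27 (log2 ratio -0.29). Rad50, its ATPase, read 8.84 and 7.78 (-0.18). Nbn, the subunit that docks ATM, read 14.4 and 12.9 (-0.16). Each of the Mre11a and Rad50 genes had a second probe below the floor, which gave no ratio. Mdc1, the scaffold that binds phosphorylated H2AX, read 14.3 and 12.7 (-0.17). The ubiquitin ligase gene Rnf8, which acts next, was dim at 1.27 and 1.12 (-0.19). Trp53bp1, whose product 53BP1 binds the ubiquitinated chromatin, read 1.20 and 1.10 (-0.12), and its second probe was below the floor. Along this chain from end binding to 53BP1 the ratios lay between -0.29 and -0.12, a narrow range beside the yardstick of 0.25.

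In homologous recombination and crosslink repair, 7 of 8 compared genes were lower, with a median log2 ratio of -0.12. Brca2, which is needed for strand exchange in recombination, had the lowest ratio of all 28 genes. It read 3.80 in wild-type and 2.26 in mDom-/-, which is 1.69-fold lower (log2 ratio -0.75). When all genes measured on both arrays were split by brightness into 4 bins of equal size, 1.74% of those in the bin of Brca2 had a ratio as low or lower. Brca2 had 1 probe, so nothing on the array checks it.

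Brca1 and Bard1 encode the 2 partners of a ubiquitin ligase that acts ahead of BRCA2. Brca1 was the brightest gene of the group at 30.4 and 29.1, with a log2 ratio of -0.062, and its second probe, at 4.30 and 4.39, gave 0.029. The Brca1 probes thus lay close to 0 on either side of it, unlike Brca2. Bard1 was dim, at 1.45 and 1.30 (-0.16). Rad51c, which also acts in recombination, was the dimmest compared gene, at 1.04 and 0.848 (-0.29).

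Rad54l, a DNA motor protein of the same pathway, read 26.6 and 24.0 (-0.15). A probe annotated to both Lrrc41 and Rad54l was not counted and read 1.95 and 2.14 (0.13). Blm, the helicase mutated in Bloom syndrome, read 23.5 and 22.0 (-0.095). Fanca, of the Fanconi anaemia core complex, read 3.49 and 3.27 (-0.093). Fancd2, which that complex ubiquitinates at crosslinks, was one of the 3 genes above 0, at 1.60 and 1.74 (0.12). The brightest genes of this group, Brca1, Rad54l and Blm, thus lay within 0.15 of 0, and Brca2 stood apart from them.

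All 4 compared genes of end joining were lower, with a median log2 ratio of -0.21. Prkdc, the catalytic subunit of the DNA-dependent protein kinase, read 5.84 in wild-type and 3.77 in mDom-/-, 1.55-fold lower (log2 ratio -0.63). In its brightness bin 3.49% of genes had a ratio as low or lower. A second Prkdc probe was below the floor on both arrays, at 0.259 and -0.0622. Xrcc6, which encodes the Ku70 subunit that carries the kinase to DNA ends, read 13.7 and 11.0 (-0.31). Xrcc4 and Lig4 encode the scaffold and the ligase that seal the ends. Xrcc4 read 2.85 and 2.65 (-0.11), and Lig4 read 9.15 and 8.89 (-0.042). Prkdc and Xrcc6, of end recognition, therefore read lower than Xrcc4 and Lig4, of ligation, a difference that was not tested. Xrcc5, also of end recognition, lay below the floor and is not part of this.

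Mismatch, excision and single-strand break repair showed the widest mix, with 5 of 7 compared genes below 0 and a median log2 ratio of -0.030. Parp1, the enzyme that marks single-strand breaks with poly(ADP-ribose), read 20.5 in wild-type and 13.3 in mDom-/-, 1.54-fold lower (-0.62). In its brightness bin 1.17% of genes had a ratio as low or lower, the smallest such share of the 3 genes past 1.5-fold. These 3 were singled out for their low ratios, so small shares follow in part from that choice. Parp1 had 1 probe, so no second probe checks it. Xrcc1, the scaffold that Parp1 activity recruits to the same breaks, had the highest ratio of all 28 genes, at 35.1 and 42.6 (0.28). In its bin 10.1% of genes were as high or higher, and a second Xrcc1 probe was below the floor. Lig3, the ligase bound to XRCC1, read 5.29 and 5.19 (-0.028), and a second Lig3 probe was below the floor. Parp1, Xrcc1 and Lig3, which serve the same pathway, thus lay at the low end, the high end and the middle of the group.

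Msh6, which recognises mispaired bases, was the brightest of all 28 genes, at 67.7 and 60.3 (-0.17). Xpa, which verifies damage in nucleotide excision repair, read 15.6 and 16.3 (0.061). Ercc1, a subunit of the nuclease that cuts beside the damage, read 12.9 and 12.7 (-0.030). Lig1, the ligase of replication and excision repair, read 4.35 and 3.82 (-0.19). None of these 4 differed by as much as the yardstick.

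**Figure D2:**
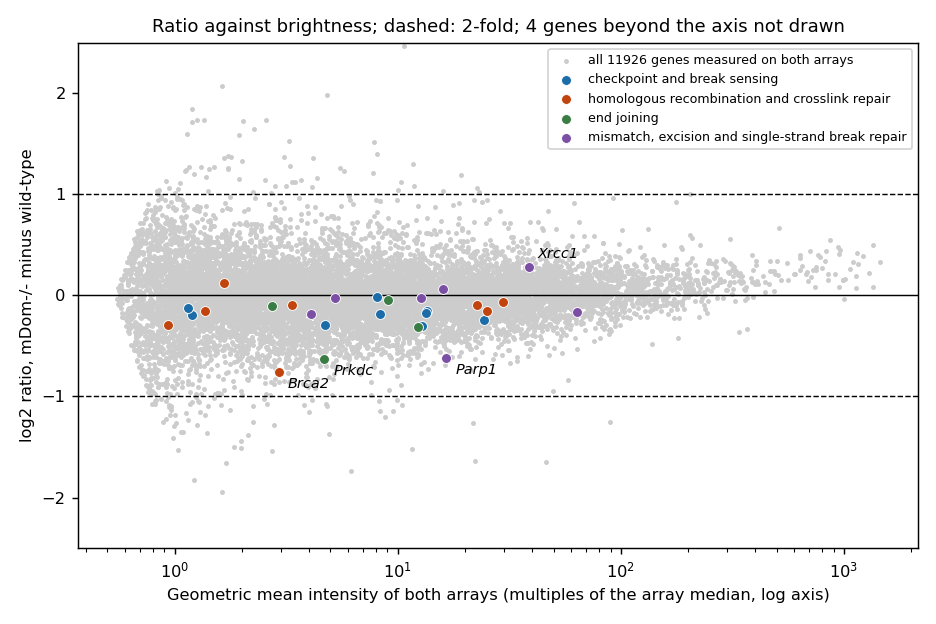
log2 ratio (mDom-/- minus wild-type) against the geometric mean intensity of both arrays on a log axis, for all 11926 genes measured on both (grey) and the 28 repair genes (coloured by role); dashed lines mark 2-fold and 4 genes lie beyond the axis. Most repair genes sit below 0 within the grey cloud, with Brca2, Prkdc and Parp1 lowest and Xrcc1 highest.

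The lower reading was seen in each range of brightness. From the dimmest of the 4 bins to the brightest lay 5, 7, 10 and 6 of the repair genes, of which 4, 7, 9 and 5 were below 0. Their medians in these bins were -0.16, -0.19, -0.16 and -0.12. The share of all genes below 0 was 49.9%, 53.6%, 54.9% and 44.3% in the same order. The brightest bin of all genes thus read a little higher in mDom-/-, with a median of 0.029, while the repair genes in it read lower.

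A wider list of 120 other repair genes, written with the earlier results of these arrays known, had a share near the background. Of its 99 compared genes 54 were below 0, where the background was 50.5%, and the median was -0.042. Of these 99 genes 4 were 1.5-fold or more higher (background 4.09%) and 4 were lower by as much (background 4.35%), both near the background share. By role, 12 of 20 other checkpoint genes were below 0 (median -0.052), 9 of 23 of recombination and crosslink repair (0.042), 4 of 8 of end joining (-0.021), 23 of 39 of mismatch, excision and single-strand break repair (-0.054) and 6 of 9 of lesion bypass (-0.15). The difference between the 33 genes and the wider list was not tested.

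The lowest ratios of the wider list among genes measured on both arrays were those of Hus1, Primpol and Wee1. Hus1, part of the clamp that activates ATR, read 4.31 and 2.72 (-0.66). Primpol, a primase that restarts stalled forks, read 1.08 and 0.680 (-0.66). Wee1, the kinase that holds back mitotic entry, read 1.43 and 0.917 (-0.65). The highest were Swsap1, a recombination gene, at 2.21 and 3.71 (0.75), Polh, a polymerase that bypasses ultraviolet damage, at 1.15 and 1.82 (0.66), and Fance, of the Fanconi core complex, at 4.58 and 6.99 (0.61). Only H2afx, 1 of the 99 compared genes, was 2-fold apart (background 0.845% higher and 0.929% lower). This gene, now named H2ax, encodes the histone variant phosphorylated by ATM at breaks. It read 0.491 in wild-type, below the floor, and 1.20 in mDom-/-, so it was at least 2.22-fold higher. Its ratio had the opposite sign to those of Atm and Mdc1, whose products write and read its phosphorylated form.

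**Figure D3:**
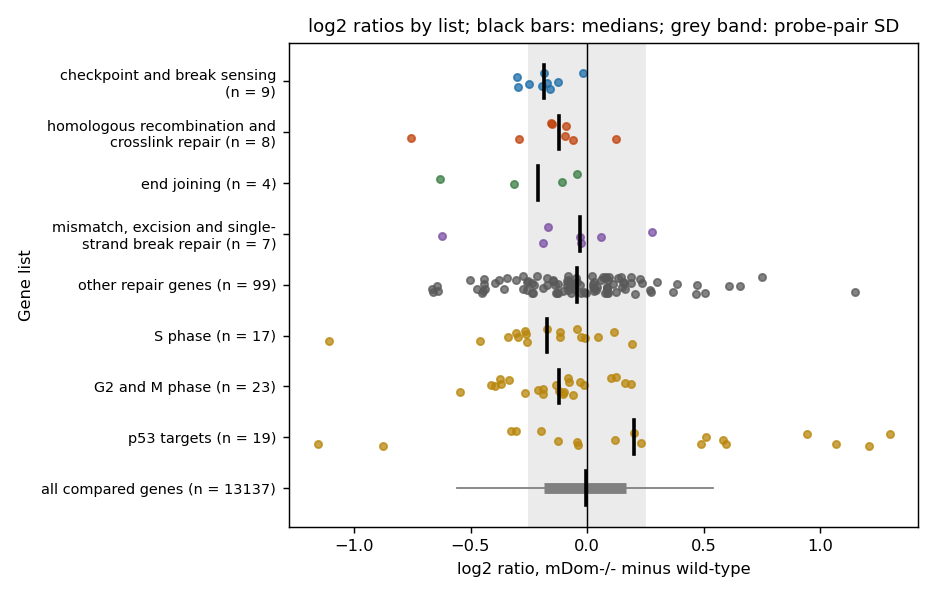
log2 ratio (mDom-/- minus wild-type) of each gene, as points by list, with a black bar at each median; the lowest line gives all 13137 compared genes as the middle 50% (thick) and 90% (thin) of genes, and the grey band spans 1 probe-pair SD of 0.25 on either side of 0; genes above the floor on 1 array only are drawn at their bound. The medians run from -0.21 for end joining to 0.20 for p53 targets, and the wider list of repair genes is centred near 0.

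Most genes of dividing cells read lower, with medians close to that of the repair genes. The S phase list (helicases and other replication genes, none of them among the 33) had 14 of 17 compared genes below 0 (background 50.5%). Its median log2 ratio was -0.17, and its summed level was 839.2 in wild-type and 799.1 in mDom-/-. The G2 and M phase list had 19 of 23 below 0 and a median of -0.12. Its summed level hardly differed, at 1219.3 and 1217.4. Targets of p53, the transcription factor that ATM and CHK2 activate, went both ways, with a median of 0.20 but 8 of 19 below 0, near the background of 50.5%. Of these 19 genes 5 were at least 1.5-fold higher (background 4.09%). They were Pmaip1 (1.30), Ccng1 (1.21), Sesn2 (1.07, a bound), Phlda3 (0.94) and Cdkn1a (0.59), of which the first 3 were at least 2-fold higher (background 0.845%). Lower by at least 1.5-fold were 2, Mdm2 (-1.16, a bound) and Perp (-0.88) (background 4.35%). The part of these lists in the reading of the repair genes was not tested.

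Of the 12 markers of the embryo proper, 11 were measured on both arrays, and Sox2 lay below the floor. Their median log2 ratio was -0.0068, with 6 of 11 below 0, among them Pax6 (-0.38) and Hes5 (-1.50). Their summed level of 478.2 in wild-type and 490.1 in mDom-/- was mostly that of the heart gene Myl7, at 354.4 and 374.5. Visceral endoderm and yolk sac markers went both ways, with 6 of 12 below 0 and a median of 0.054. Their sums of 632.5 and 733.1 differed mainly through Ttr, at 166.6 and 251.2, while Lrp2 (-0.74), Cubn (-0.62) and Trf (-0.51) were lower. Trophoblast and decidua markers summed to 21.5 and 24.6 over 6 of 12 genes, of which 5 were above 0. Tpbpa, Prl4a1 and Igfbp1 lay below the floor, and Prl3d1, Prl2c2 and Gcm1 had no probe of their own. Embryonic red cell markers, 7 of 8 compared, summed to 351.6 and 41.1, nearly all of it the globins Hbb-y (133.8 and 5.12) and Hba-x (199.9 and 22.4). Of these 7 genes 6 were below 0. Besides the globins, Alas2 read 5.99 and 2.70 (log2 ratio -1.15). Gata1 (-0.42) and Slc4a1 (-0.058) were also lower, both as bounds. Rhag had a log2 ratio of -0.012, and Epb42, dim at 1.03 and 1.41, had one of 0.45. The part of these differences in tissue content in the repair gene values was not tested. Both Ep400 probes were below the floor, at 0.215 and 0.470 in wild-type and -0.0295 and 0.0714 in mDom-/-, so the disrupted gene did not check the labels.

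Some of the genes start close to a gene transcribed the other way. Of the 28 genes with a window, 13 (46.4%) had such a neighbour with a start within 1000 bases, where 12.3% of all 27025 genes with a window and 17.6% of the 10570 compared genes with a window did. This difference was not tested. In 7 of these pairs both genes were measured on both arrays. Both ratios had the same sign in 5, and over all 476 such pairs in 54.8%, so 7 pairs are too few to read a shared sign from. Nbr1, an autophagy receptor gene whose start lies 152 bases from that of Brca1, read 14.6 and 12.0 (-0.29), lower than Brca1 itself (-0.062). Npat, a histone gene activator that starts 376 bases from Atm, read 1.56 and 1.59 (0.030), against -0.25 for Atm. Desi1, 149 bases from Xrcc6, read 25.2 and 24.1 (-0.065), against -0.31. Tmem167, 59 bases from Xrcc4, read 18.3 and 14.8 (-0.31), against -0.11, and Abhd13, 37 bases from Lig4, read 3.79 and 3.20 (-0.25), against -0.042. Ankrd49, 81 bases from Mre11a, had -0.037 and Zswim9, 105 bases from Lig1, had 0.043. In each of the 7 pairs the log2 ratios differed by 0.21 to 0.28. The yardstick of 0.25 is the SD of a single ratio, and a difference of 2 ratios carries the error of both.

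**Figure D4:**
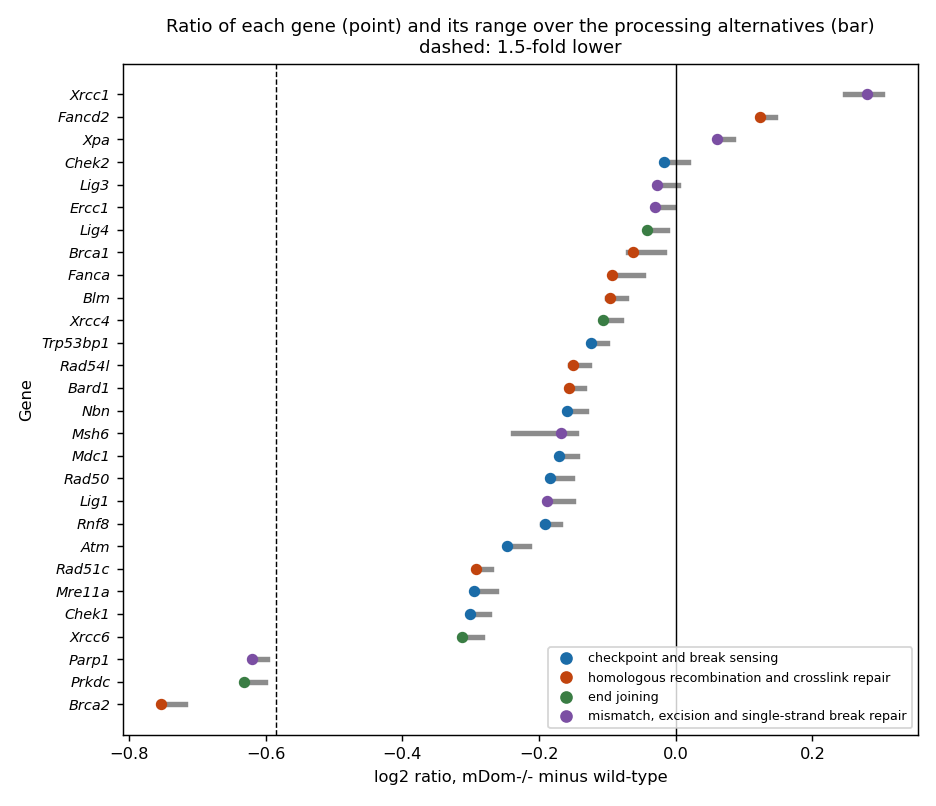
log2 ratio (mDom-/- minus wild-type) of each of the 28 genes (points, coloured by role) with the span of its values over 9 processing alternatives (grey bars); the dashed line marks 1.5-fold lower. Brca2, Prkdc and Parp1 stay left of the dashed line, and the bars of Chek2 and Lig3 cross 0.

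The signs of the ratios were mostly the same under other processing. Of the 28 genes, 23 were below 0 and 3 above 0 in each of the alternatives that compared them, and 2, Chek2 and Lig3, crossed 0. Brca2 stayed between -0.76 and -0.72, Prkdc between -0.63 and -0.60 and Parp1 between -0.62 and -0.60. Each of these genes had 1 compared probe, so the floors, probe averaging and the rule of both arrays left its ratio unchanged. Only the changes of scaling could move it. All alternatives reuse the same arrays, so these ranges do not measure error.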

How the data were processed

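Total RNA of 1 wild-type and 1 mDom-/- pool was measured on 1 array each. The deposited values are linear spot intensities, which per the labels the CodeLink System Software took from the array images. The sources used here give no software version, background correction or scaling. The medians of 1.05 in both columns show that the values were already scaled per array, but not on which probes they were centred. Cells of -9999 were taken as missing (105 and 106 probes).

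Of 36227 probes, 21615 had 1 gene symbol in the platform annotation, 681 several and 13931 none listed. Names were updated through Entrez identifiers in the RefSeq table of GRCm38.p6 (21487 probes). Each array was divided by its median, raised to a floor at the higher of the 40th percentiles and put on the log2 scale; 59.7% and 60.0% of probes lay above it. A gene took its brightest compared probe. With 1 array per group no p-value can be given, and precision is limited by this number of arrays. Genes were described by size, at 1.5-fold and 2-fold. The genes, lists and rules were chosen with earlier results of these data known. Every listed gene was named, and of the wider list the 3 highest and 3 lowest ratios and those 2-fold apart. The head-to-head pairs, the brightness bins and the count below 0 were added after the values were seen.

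The 9 alternatives were no rescaling, the 75th percentile, quantile normalization, loess (span 0.3), a floor at the 25th percentile, at the 60th or none at all, averaging a gene's probes, and genes measured on both arrays. Python 3.11.15, pandas 2.3.3, numpy 2.4.6 and statsmodels 0.14.6 were used, and the steps were tested on simulated data.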

Additional observations from a re-analysis of the deposited data

How the results depend on the processing

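The median of the compared repair genes lay between -0.16 and -0.14 over the 9 alternatives, and the number below 0 was 23 or 24 of 28 with loess, quantile normalization and the 75th percentile, 27 of 31 with the 25th percentile floor or no floor, and 21 of 23 with the 60th percentile floor, which leaves out Rnf8, Trp53bp1, Bard1, Rad51c and Fancd2. The counts of genes past 1.5-fold or 2-fold lower changed only with lower floors or none, which admit Atr, Rad52 and Xrcc5. With no floor 5 of 31 genes were at least 1.5-fold lower, where 11.6% of all genes were under this setting. At least 2-fold lower were 2 (Atr at -2.25 and Rad52 at -1.05), while Xrcc5 had 0.52. With the 25th percentile floor 4 of 31 were at least 1.5-fold lower, where 8.62% of all genes were. Of these, 1 was at least 2-fold lower, Rad52 at -1.02, while Atr had -0.38 and Xrcc5 0.060. The share of all genes 2-fold lower was not counted under these settings. The ratios of Atr, Rad52 and Xrcc5 rest on signals below the chosen floor on both arrays and have no reliable order. No paired analysis was possible because each group has 1 array, and no array could be left out. Genes near the floor are limited by signal over background.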
